A study of Mus musculus with 16 samples.

Results

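Mitotic genes encode the kinases, motors, checkpoint proteins and ubiquitin ligase activators with which a cell condenses, aligns and separates its chromosomes and then divides. A list of 38 such genes was followed here, matched by gene symbol among the 52636 genes of a mouse aorta RNA sequencing table. All 38 were found in the table, and all 38 passed the filter on low counts as did 17125 genes in all. The tissue was whole descending thoracic aorta, the main artery where it passes through the chest, from mice of 2 inbred strains, C57BL/6J and 129S6/SvEvTac. Each strain was studied as control and with hypertension induced by the vasoconstrictor peptide angiotensin II (AngII). There were 4 libraries in each of the 4 groups. The sources used here do not state the dose and duration of AngII, the age and sex of the mice or whether each library came from its own animal. The p-values therefore measure only how these libraries spread, which may be technical.

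Most cells of a healthy adult aorta are smooth muscle cells at rest, and resting cells keep mitotic genes nearly silent. In cycling cells these genes are switched on late, in G2 and mitosis. As background, the promoters of many of them hold a cell cycle genes homology region (CHR), with the core TTTGAA, near the start of transcription. The MuvB protein complex binds it, as part of the repressive DREAM complex in resting cells and with B-MYB and FOXM1 in cycling cells. CCAAT boxes, bound by NF-Y, often lie upstream of it. Cyclin B and CDK1 then drive entry into mitosis, Aurora and Polo kinases build the spindle and correct chromosome attachments, and the spindle checkpoint holds back the anaphase-promoting complex until every kinetochore is attached. Proteins of the central spindle finally guide cleavage of the cell.

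RefSeq promoter windows from 250 bases before to 50 bases after the start (build GRCm38.p6) were matched for 32 of the 38 genes, in 34 windows. Foxm1, Aurkb, Ccna2, Incenp, Kif20a and Tpx2 were not matched. The element is shown first in 8 genes with different roles: a cyclin, a kinase, kinetochore, checkpoint, anaphase, midzone and motor genes, and Anln, whose expression stood apart from the rest. Each line is read 5′ to 3′ along the gene, with a single element in capitals, written TTTGAA, or TTCAAA where it lies on the opposite strand. The Anln line also holds a further TTTGAA, after the capitals and on the strand of the gene, which is left in small letters.
Ccnb2, chr9:70421537-70421558, minus strand: gcgcggtaTTTGAAtcgcggac
Plk1, chr7:122159457-122159478, plus strand: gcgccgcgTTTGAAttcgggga
Cenpf, chr1:189688071-189688092, minus strand: gcgggcagTTTGAAtcgctcgt
Bub1b, chr2:118598243-118598260, plus strand: acgttaaaTTTGAAactt
Cdc20, chr4:118437348-118437369, minus strand: agttgggtTTTGAAggagccaa
Prc1, chr7:80294438-80294459, plus strand: tggctcggTTTGAAttccgcgg
Kif4, chrX:100626076-100626097, plus strand: gggatcaaTTTGAAacttggcg
Anln, chr9:22389172-22389193, minus strand: cgctgaaaTTCAAAttttgaac

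Searched on both strands, TTTGAA was present in 26 of the 34 windows, or 76.5%, against 17.9% of all 32851 windows and 16% of the 21263 windows of coding genes. Within 50 bases of the start it was present in 24 windows, or 70.6%, against 4.94% of all windows. The variant TTTAAA was present in 26.5% of the 34 windows and in 13.2% of all. CCAAT was found on either strand in 26 windows, again 76.5%, against 37.4% of all windows, and at least 2 copies in 52.9% against 11.7%. Both motifs stood together in 23 windows, or 67.6%, against 6.95% of all. Ccnb1, Melk, Birc5, Cenpe, Nuf2, Bub1, Mad2l1 and Nusap1 had no TTTGAA in the window, which says only that these letters are not in these 300 bases. The motifs do not contain each other, and a match is a description of letters, not a site shown to be bound.

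The 250 bases before the start are printed for a pair of genes with several CCAAT boxes, Top2a and Ccnb2, and for Bub1b and Anln, the 2 genes whose expression departed most from the others. Capitals mark TTTGAA and CCAAT, or TTCAAA and ATTGG where the match lies on the opposite strand.
Top2a, chr11:99024190-99024439, minus strand: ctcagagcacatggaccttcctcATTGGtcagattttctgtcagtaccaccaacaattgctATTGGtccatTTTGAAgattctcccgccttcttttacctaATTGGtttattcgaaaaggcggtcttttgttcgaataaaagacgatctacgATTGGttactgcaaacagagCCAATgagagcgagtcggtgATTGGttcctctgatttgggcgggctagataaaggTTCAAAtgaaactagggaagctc
Ccnb2, chr9:70421555-70421804, minus strand: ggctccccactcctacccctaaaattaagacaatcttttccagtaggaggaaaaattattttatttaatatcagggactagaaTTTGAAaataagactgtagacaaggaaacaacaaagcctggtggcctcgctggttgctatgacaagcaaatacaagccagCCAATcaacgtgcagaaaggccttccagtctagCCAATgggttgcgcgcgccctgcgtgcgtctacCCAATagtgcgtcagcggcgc
Bub1b, chr2:118597961-118598210, plus strand: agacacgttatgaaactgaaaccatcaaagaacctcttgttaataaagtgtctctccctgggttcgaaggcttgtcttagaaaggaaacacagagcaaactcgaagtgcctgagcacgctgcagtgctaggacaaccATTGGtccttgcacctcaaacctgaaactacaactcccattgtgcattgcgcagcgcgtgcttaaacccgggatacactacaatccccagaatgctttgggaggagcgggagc
Anln, chr9:22389207-22389456, minus strand: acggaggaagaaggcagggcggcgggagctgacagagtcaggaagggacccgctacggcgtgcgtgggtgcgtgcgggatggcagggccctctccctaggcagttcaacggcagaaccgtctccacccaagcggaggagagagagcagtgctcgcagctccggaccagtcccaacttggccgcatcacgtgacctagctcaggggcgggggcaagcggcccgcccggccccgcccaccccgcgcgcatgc
The Top2a stretch held 6 CCAAT boxes and 2 copies of TTTGAA, and the Ccnb2 stretch 3 boxes and 1 copy. Bub1b had 1 CCAAT box there and Anln none, and both had TTTGAA only after the start, in the lines above.

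**Figure D1:**
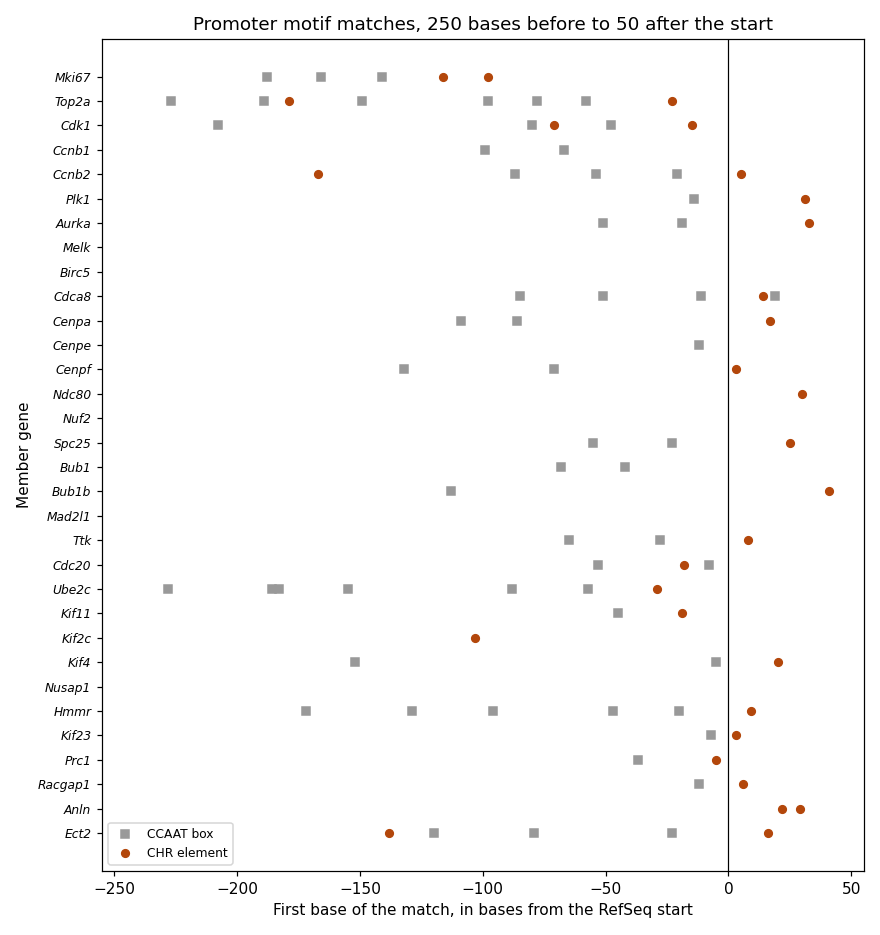
Positions of CCAAT boxes (grey squares) and TTTGAA matches (red circles) in promoter windows from 250 bases before to 50 bases after the RefSeq start, for the 32 genes matched, with 1 window drawn for each of Ect2 and Prc1, which have several. The horizontal axis is the first base of each match in bases from the start. Most TTTGAA matches lie within 50 bases of the start (24 of 34 windows), and most CCAAT boxes lie before it.

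Levels are given in CPM, the usual depth-scaled unit, as the deposited count relative to each library's normalised total. Values in a sentence follow the replicate numbers of the labels, which are 1, 2, 3 and 5 for both C57BL/6J groups, 1, 2, 3 and 4 for 129S6/SvEvTac control and 1, 2, 4 and 5 for 129S6/SvEvTac AngII. Total counts ran from 42116120 to 61381134 in 15 libraries and reached 121573945 in 129S6/SvEvTac AngII replicate 5. Smooth muscle markers were abundant in this tissue: the summed level of 8 of them was 36656 to 46091 CPM in the control groups and in 129S6/SvEvTac with AngII. The same sum was 12601 to 29717 CPM in C57BL/6J with AngII. These are bulk samples, in which fewer cells of a type and less RNA per cell cannot be told apart.

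AngII raised mitotic genes in both strains. In C57BL/6J all 38 were higher with AngII at an adjusted p below 0.05 (edgeR's quasi-likelihood test, Benjamini-Hochberg adjustment over all 17125 genes), against 21.8% of all genes called higher there. The median log2 fold change of the 38 genes was 4.69, with a range of 0.63 to 5.9, and that of all genes was 0.009. In 129S6/SvEvTac 32 of the 38 were higher, against 7.71% of all genes, and none was lower, against 4.47%. The median log2 fold change was 2.69, with a range of 0.4 to 6.14, and that of all genes was 0.003. The 6 genes not called there were Foxm1, Incenp, Cenpa, Mad2l1, Cdc20 and Ect2, all with a positive estimate. AngII and control libraries did not overlap for 37 of the 38 genes in C57BL/6J, against 19.2% of all genes, the exception being Anln. In 129S6/SvEvTac they did not overlap for 36 of the 38, against 12.4%, the exceptions being Foxm1 and Incenp.

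**Figure D2:**
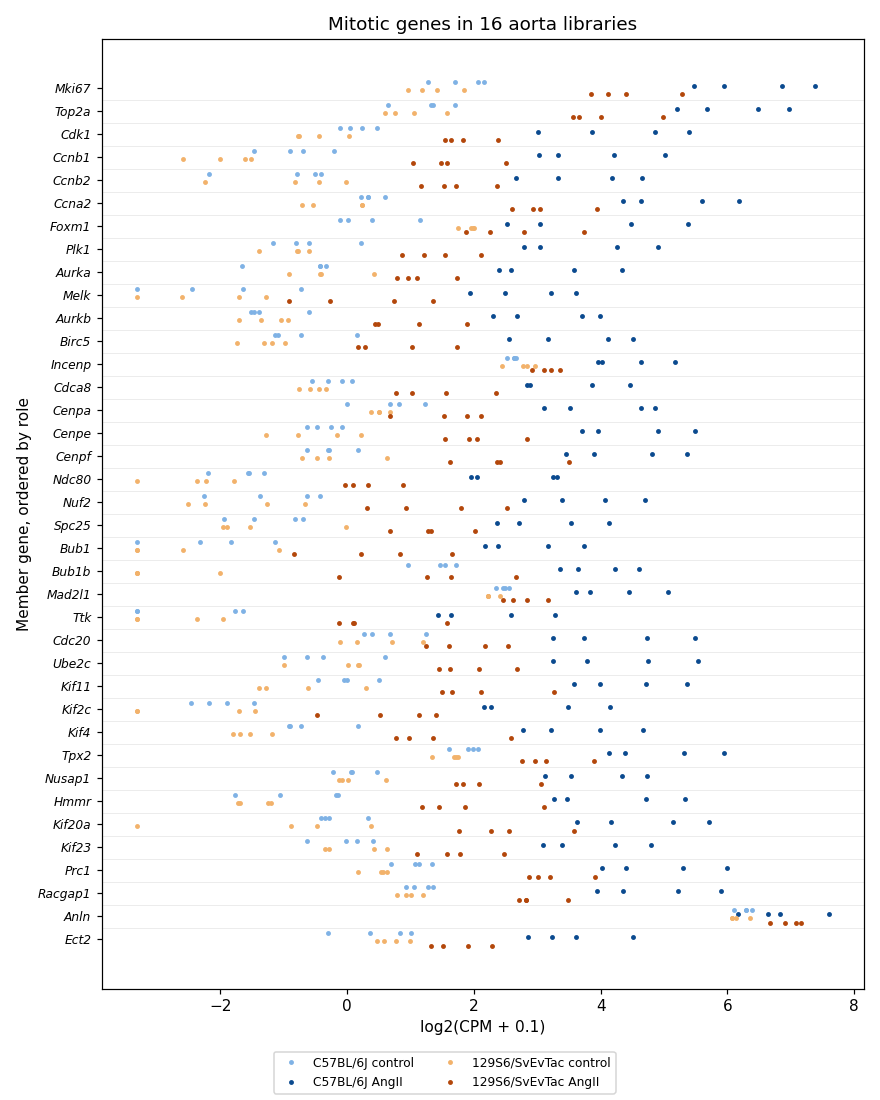
Level of each of the 38 mitotic genes in each of the 16 libraries, as log2(CPM + 0.1) on the horizontal axis, with genes ordered by role. Points are single libraries, pale for control and dark for AngII, blue for C57BL/6J and orange for 129S6/SvEvTac. The dark blue points (C57BL/6J with AngII) lie farthest right for most genes, and Anln lies to the right in all 4 groups.

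Beginning with the general markers of proliferation, Mki67 encodes Ki-67, a protein that coats mitotic chromosomes (chr7:135689784-135716361, minus strand, GRCm38 positions from GENCODE M21, as for the other genes). Mki67 stood at 4.09, 2.31, 4.35 and 3.16 CPM in C57BL/6J control and at 116, 167, 44.4 and 61.5 CPM in C57BL/6J with AngII. Mki67 in 129S6/SvEvTac was 3.5, 2.56, 1.84 and 2.17 CPM in control and 17.2, 39, 14.3 and 21 CPM with AngII. Every AngII library was above every control library of its strain, and the 4 C57BL/6J AngII libraries were above all others. The log2 fold change was 4.8 ± 0.45 (SE, adjusted p = 2.68e-06) in C57BL/6J and 3.18 ± 0.43 (SE, adjusted p = 0.000285) in 129S6/SvEvTac. Top2a encodes topoisomerase II alpha, which untangles sister chromatids. Top2a stood at 2.41, 3.15, 2.47 and 1.47 CPM in C57BL/6J control and 89.5, 126, 36.7 and 51.1 CPM with AngII. Top2a in 129S6/SvEvTac was 2.89, 1.98, 1.58 and 1.42 CPM in control and 12.5, 31.6, 11.7 and 16 CPM with AngII. Its groups were ordered in the same way, with log2 fold changes of 5.0 ± 0.46 in C57BL/6J and 3.19 ± 0.43 in 129S6/SvEvTac, the order in which paired values are given from here on.

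The engine of mitotic entry followed. Cdk1, the mitotic cyclin-dependent kinase, stood at 0.821, 0.928, 1.28 and 1.07 CPM in C57BL/6J control and 28.8, 41.9, 7.96 and 14.4 CPM with AngII. Cdk1 in 129S6/SvEvTac was 0.633, 0.922, 0.485 and 0.488 CPM in control and 3.0, 5.12, 2.83 and 3.45 CPM with AngII. Cdk1 rose on the log2 scale by 4.5 ± 0.45 (SE, adjusted p = 4.25e-06) in C57BL/6J and 2.5 ± 0.43 (SE, adjusted p = 0.0018) in 129S6/SvEvTac, with no overlap of AngII and control in either strain. Ccnb1, cyclin B1, the partner of Cdk1, stood at 0.436, 0.518, 0.762 and 0.261 CPM in C57BL/6J control and 18.4, 32.3, 8.07 and 9.89 CPM with AngII. Ccnb1 in 129S6/SvEvTac was 0.249, 0.226, 0.148 and 0.0665 CPM in control and 2.68, 5.55, 1.95 and 2.88 CPM with AngII. Its log2 fold change of 4.22 ± 0.55 (SE, adjusted p = 0.000232) in 129S6/SvEvTac was the third largest of the 38 in that strain, beside 5.11 ± 0.53 in C57BL/6J. Ccna2, cyclin A2, which acts from DNA replication into early mitosis, stood at 1.06, 1.16, 1.42 and 1.15 CPM in C57BL/6J control and 48.1, 72.5, 20.4 and 24.8 CPM with AngII. Ccna2 in 129S6/SvEvTac was 0.588, 1.07, 1.08 and 0.51 CPM in control and 7.56, 15.3, 5.97 and 8.16 CPM with AngII. Its log2 fold change was 5.11 ± 0.44 and 3.5 ± 0.43, again without overlap. Ccnb2, cyclin B2, rose on the log2 scale by 4.98 ± 0.62 and 2.63 ± 0.57.

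Foxm1 (chr6:128362967-128376146, plus strand), the transcription factor that drives many of these genes in G2, was not called in 129S6/SvEvTac. Foxm1 stood at 0.905, 2.11, 0.822 and 1.21 CPM in C57BL/6J control and 22.2, 41.6, 5.67 and 8.15 CPM with AngII, for a log2 change of 3.94 ± 0.6 (SE, adjusted p = 0.000128). Foxm1 in 129S6/SvEvTac was 3.78, 3.25, 3.9 and 3.88 CPM in control and 3.56, 13.3, 6.79 and 4.65 CPM with AngII. One AngII library of that strain lay within the control range, and the log2 fold change of 0.93 ± 0.54 (SE, adjusted p = 0.309) was not called. Foxm1 shares exon positions with Tex52 and Gm44596 on its own strand, and neither exceeded 0.134 CPM in any library.

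Among the mitotic kinases, Plk1, Polo-like kinase 1, works on centrosomes, kinetochores and cytokinesis. Plk1 stood at 0.469, 1.06, 0.561 and 0.342 CPM in C57BL/6J control and 19, 29.9, 6.82 and 8.13 CPM with AngII. Plk1 in 129S6/SvEvTac was 0.475, 0.282, 0.485 and 0.555 CPM in control and 2.21, 4.22, 1.73 and 2.81 CPM with AngII. The log2 fold change was 4.72 ± 0.52 (SE, adjusted p = 8.81e-06) in C57BL/6J and 2.61 ± 0.49 (SE, adjusted p = 0.00338) in 129S6/SvEvTac. Aurka, Aurora kinase A, which matures the spindle poles, stood at 0.218, 0.69, 0.641 and 0.643 CPM in C57BL/6J control and 11.8, 20.1, 5.14 and 5.93 CPM with AngII. Aurka in 129S6/SvEvTac was 0.43, 0.64, 0.654 and 1.24 CPM in control and 1.85, 3.23, 1.62 and 2.04 CPM with AngII. It rose on the log2 scale by 4.29 ± 0.51 in C57BL/6J. The rise in 129S6/SvEvTac, 1.56 ± 0.47 (SE, adjusted p = 0.0413), was lost in 14 of the other settings and left-out libraries, at adjusted p of up to 0.121. Melk, a kinase of dividing cells, ranged over 0 to 0.501 CPM in C57BL/6J control and 3.75 to 12.1 CPM with AngII. Melk in 129S6/SvEvTac ranged over 0 to 0.311 CPM in control and 0.429 to 2.47 CPM with AngII. It rose on the log2 scale by 5.23 ± 0.93 and 3.13 ± 0.9, and the call in 129S6/SvEvTac (adjusted p = 0.0342) was lost in 9 settings, at up to 0.0922.

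The chromosomal passenger complex corrects faulty attachments and later guides cytokinesis. Aurkb, its kinase Aurora B, stood at 0.251, 0.28, 0.561 and 0.261 CPM in C57BL/6J control and 13, 15.7, 4.81 and 6.28 CPM with AngII. Aurkb in 129S6/SvEvTac was 0.384, 0.207, 0.422 and 0.288 CPM in control and 1.26, 3.61, 1.3 and 2.09 CPM with AngII. Aurkb rose on the log2 scale by 4.87 ± 0.5 (SE, adjusted p = 4.83e-06) in C57BL/6J and 2.66 ± 0.47 (SE, adjusted p = 0.00193) in 129S6/SvEvTac. Birc5, survivin, which brings the complex to centromeres, stood at 0.352, 0.367, 0.501 and 1.01 CPM in C57BL/6J control and 17.2, 22.8, 5.77 and 8.89 CPM with AngII. Birc5 in 129S6/SvEvTac was 0.407, 0.301, 0.338 and 0.2 CPM in control and 1.11, 3.23, 1.03 and 1.94 CPM with AngII. Birc5 rose on the log2 scale by 4.62 ± 0.53 and 2.54 ± 0.51, and Cdca8, borealin, by 4.03 ± 0.43 and 2.25 ± 0.41. Incenp (chr19:9872296-9899551, minus strand), the scaffold of the complex, stood at 6.12, 5.63, 6.07 and 6.27 CPM in C57BL/6J control and 24.7, 35.9, 15.4 and 16.2 CPM with AngII. Incenp in 129S6/SvEvTac was 7.01, 7.73, 5.36 and 6.74 CPM in control and 7.47, 10.2, 9.22 and 8.54 CPM with AngII. The scaffold was thus the member of the complex with the highest control level and the smallest log2 fold change. That change was 1.94 ± 0.23 (SE, adjusted p = 1.38e-05) in C57BL/6J and 0.4 ± 0.22 (SE, adjusted p = 0.274) in 129S6/SvEvTac, where the groups overlapped and the gene was not called.

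At the centromere, Cenpa encodes the histone H3 variant that marks where kinetochores form. Cenpa stood at 1.49, 1.66, 0.902 and 2.25 CPM in C57BL/6J control and 24.7, 29, 8.49 and 11.3 CPM with AngII. Cenpa in 129S6/SvEvTac was 1.31, 1.2, 1.31 and 1.49 CPM in control and 3.61, 4.24, 1.49 and 2.77 CPM with AngII. It rose in C57BL/6J (3.54 ± 0.42 SE, adjusted p = 1.56e-05), while its log2 fold change in 129S6/SvEvTac, 1.19 ± 0.4 (SE, adjusted p = 0.0658), was not called, although 4 other settings or left-out libraries called it. Its lowest AngII library there and its highest control are equal at 3 digits. Cenpe, a kinesin that carries chromosomes to the spindle equator, stood at 0.737, 0.841, 0.621 and 0.543 CPM in C57BL/6J control and 29.9, 44.9, 15.5 and 12.9 CPM with AngII. Cenpe in 129S6/SvEvTac was 1.06, 0.79, 0.485 and 0.311 CPM in control and 4.04, 7.02, 2.81 and 3.69 CPM with AngII. The log2 fold changes were 5.23 ± 0.48 in C57BL/6J and 2.72 ± 0.44 in 129S6/SvEvTac, both called. Cenpf, a large protein of the outer kinetochore, stood at 1.02, 0.712, 0.722 and 0.543 CPM in C57BL/6J control and 28, 40.8, 10.9 and 14.7 CPM with AngII. Cenpf in 129S6/SvEvTac was 1.45, 0.621, 0.717 and 0.51 CPM in control and 5.05, 11.2, 2.99 and 5.23 CPM with AngII. Cenpf rose on the log2 scale by 4.97 ± 0.52 and 2.89 ± 0.49.

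Ndc80, Nuf2 and Spc25 are subunits of the NDC80 complex, the kinetochore's grip on microtubules. Ndc80 stood at 0.117, 0.237, 0.301 and 0.241 CPM in C57BL/6J control and 9.37, 9.81, 3.78 and 4.03 CPM with AngII. Ndc80 in 129S6/SvEvTac was 0.113, 0.0941, 0.19 and 0 CPM in control and 0.88, 1.74, 0.966 and 1.15 CPM with AngII. No AngII library of either strain fell to the level of a control. Log2 fold changes in C57BL/6J were 4.91 ± 0.57 for Ndc80, 5.23 ± 0.7 for Nuf2 and 4.83 ± 0.62 for Spc25. In 129S6/SvEvTac they were 3.54 ± 0.59, 3.54 ± 0.69 and 2.77 ± 0.58 in the same order, all 3 called.

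The spindle checkpoint held some of the largest and some of the smallest effects. Mad2l1, which with Bub1b inhibits the anaphase activator Cdc20, stood at 5.41, 5.5, 5.01 and 5.79 CPM in C57BL/6J control and 21.8, 33.2, 12.1 and 14.1 CPM with AngII. Mad2l1 in 129S6/SvEvTac was 4.54, 5.19, 4.54 and 4.55 CPM in control and 5.39, 8.91, 7.05 and 6.05 CPM with AngII. It rose on the log2 scale by 1.9 ± 0.26 (SE, adjusted p = 4.39e-05) in C57BL/6J, and its log2 fold change of 0.54 ± 0.25 (SE, adjusted p = 0.192) in 129S6/SvEvTac was not called. Ttk, the checkpoint kinase MPS1, stood at 0, 0.194, 0 and 0.221 CPM in C57BL/6J control and 5.89, 9.64, 2.59 and 3.02 CPM with AngII. Ttk in 129S6/SvEvTac was 0.158, 0.0941, 0 and 0 CPM in control and 0.97, 2.88, 0.812 and 0.978 CPM with AngII. Control libraries at or near 0 make these fold changes imprecise, 5.68 ± 1.03 (SE, adjusted p = 0.000505) in C57BL/6J and 4.42 ± 1.04 (SE, adjusted p = 0.0119) in 129S6/SvEvTac, and their size depends on the prior count of the fit. Bub1, a checkpoint kinase, stood at 0.352, 0, 0.18 and 0.101 CPM in C57BL/6J control and 8.89, 13.2, 5.1 and 4.43 CPM with AngII. Bub1 in 129S6/SvEvTac was 0, 0.376, 0 and 0.0665 CPM in control and 1.06, 3.05, 0.461 and 1.69 CPM with AngII. It too began near 0, and rose on the log2 scale by 5.58 ± 1.0 (SE, adjusted p = 0.000482) in C57BL/6J and 3.73 ± 0.98 (SE, adjusted p = 0.0218) in 129S6/SvEvTac, the latter call lost in 5 settings at adjusted p of up to 0.0662.

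Bub1b (chr2:118598211-118641591, plus strand) encodes BubR1, the checkpoint protein that joins Mad2 on Cdc20. Bub1b stood at 2.83, 3.17, 2.65 and 1.85 CPM in C57BL/6J control and 18.6, 24.2, 10.1 and 12.4 CPM with AngII, for a log2 change of 2.64 ± 0.57 (SE, adjusted p = 0.00192). Bub1b in 129S6/SvEvTac was 0, 0.15, 0 and 0 CPM in control and 2.3, 6.24, 0.812 and 3.01 CPM with AngII. All the reads of that control group, 8 counts, came from replicate 2, and the other libraries are listed at 0, against 540 counts summed over the C57BL/6J controls. The log2 fold change of 6.14 ± 0.83 (SE, adjusted p = 0.000285) in 129S6/SvEvTac was the largest of the 38 in that strain, and its size depends on the prior count of the fit. With AngII all 4 libraries of this strain stood below the lowest C57BL/6J AngII library, and 3 of them stood at or above the lowest C57BL/6J control. Reads of both strains were aligned to GRCm38, an assembly built from C57BL/6J. Whether the low counts of Bub1b in 129S6/SvEvTac controls reflect its expression, differences in sequence from that assembly or the counting was not tested, and this limit holds for every comparison of its level between the strains. In 129S6/SvEvTac with AngII the same gene gave 731 counts over the 4 libraries.

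Anaphase begins when the anaphase-promoting complex is activated by Cdc20 and supplied with ubiquitin by Ube2c. Cdc20 stood at 1.21, 1.1, 2.27 and 1.49 CPM in C57BL/6J control and 26.4, 44.7, 9.39 and 13.3 CPM with AngII. Cdc20 in 129S6/SvEvTac was 2.19, 1.54, 1.01 and 0.821 CPM in control and 2.96, 5.73, 2.26 and 4.41 CPM with AngII. It rose on the log2 scale by 3.95 ± 0.5 (SE, adjusted p = 2.68e-05) in C57BL/6J, and its change of 1.46 ± 0.47 (SE, adjusted p = 0.0541) in 129S6/SvEvTac was just above the threshold, with 5 other settings calling it. Ube2c stood at 0.402, 0.669, 1.42 and 0.543 CPM in C57BL/6J control and 26.7, 46.1, 9.35 and 13.6 CPM with AngII. Ube2c in 129S6/SvEvTac was 1.04, 1.03, 0.401 and 0.91 CPM in control and 2.98, 6.31, 2.64 and 4.12 CPM with AngII. Ube2c rose on the log2 scale by 4.98 ± 0.56 and 2.24 ± 0.52, both called. The exons of Cdc20 lie opposite those of Elovl1, at 42.2 to 102 CPM, and as the strand setting of the counting is not given in the sources used here, reads of the 2 genes may not be told apart. The same holds for Ccna2 and Exosc9 (10.3 to 24.2 CPM over all libraries), Kif4 and Pdzd11 (21.2 to 27.7 CPM), Prc1 and Rccd1 (2.1 to 8.37 CPM) and Cdca8 and 9930104L06Rik (6.13 to 15 CPM), and for Ube2c and Tnnc2, Nusap1 and Oip5, and Plk1 and Gm44985, whose partners stayed at or below 4.05 CPM.

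Spindle motors and assembly factors all rose in both strains. Kif11, the motor that pushes the spindle poles apart, stood at 1.32, 0.626, 0.902 and 0.865 CPM in C57BL/6J control and 26.2, 41.1, 11.9 and 15.8 CPM with AngII. Kif11 in 129S6/SvEvTac was 1.13, 0.282, 0.549 and 0.311 CPM in control and 2.73, 9.47, 3.05 and 4.23 CPM with AngII. The AngII libraries of each strain stood above its controls, with log2 fold changes of 4.66 ± 0.55 and 3.1 ± 0.54. Kif4, a chromosome-bound motor, stood at 0.436, 0.431, 1.02 and 0.503 CPM in C57BL/6J control and 15.8, 25.3, 6.71 and 9.17 CPM with AngII. Kif4 in 129S6/SvEvTac was 0.339, 0.188, 0.211 and 0.244 CPM in control and 1.87, 5.93, 1.6 and 2.47 CPM with AngII. Its log2 fold change was 4.57 ± 0.52 and 3.59 ± 0.54. Tpx2, which activates Aurka and seeds spindle microtubules, stood at 3.85, 2.96, 4.07 and 3.66 CPM in C57BL/6J control and 39.5, 61.5, 17.4 and 20.8 CPM with AngII. Tpx2 in 129S6/SvEvTac was 2.44, 3.1, 3.25 and 3.19 CPM in control and 7.74, 14.7, 6.7 and 8.71 CPM with AngII. Tpx2 rose on the log2 scale by 3.26 ± 0.36 and 1.65 ± 0.34. Kif2c, a motor that shortens microtubules at centromeres, stood at 0.168, 0.259, 0.12 and 0.0804 CPM in C57BL/6J control and 11.1, 17.6, 4.74 and 4.37 CPM with AngII. Kif2c in 129S6/SvEvTac was 0, 0.207, 0 and 0.266 CPM in control and 2.1, 2.55, 0.615 and 1.33 CPM with AngII. Its log2 fold change of 5.9 ± 0.84 (SE, adjusted p = 7.03e-05) in C57BL/6J was the largest of the 38 there. Nusap1, which bundles spindle microtubules, rose on the log2 scale by 4.07 ± 0.41 and 2.24 ± 0.38, and Hmmr, a spindle pole protein and hyaluronan receptor, by 5.3 ± 0.61 and 3.95 ± 0.62.

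At the midzone, Prc1 bundles the microtubules left between the separating chromosomes. Prc1 stood at 2.09, 1.51, 2.43 and 2.01 CPM in C57BL/6J control and 39.2, 63.7, 16.2 and 21.1 CPM with AngII. Prc1 in 129S6/SvEvTac was 1.38, 1.35, 1.03 and 1.44 CPM in control and 7.94, 15, 9.11 and 7.18 CPM with AngII. The log2 fold change was 4.12 ± 0.39 (SE, adjusted p = 3.07e-06) in C57BL/6J and 2.91 ± 0.38 (SE, adjusted p = 0.000261) in 129S6/SvEvTac. Kif20a, a motor that brings Aurora B to the midzone, stood at 0.721, 0.647, 0.682 and 1.15 CPM in C57BL/6J control and 35.2, 52.2, 12.2 and 17.8 CPM with AngII. Kif20a in 129S6/SvEvTac was 1.2, 0.621, 0.443 and 0 CPM in control and 4.71, 11.9, 3.29 and 5.76 CPM with AngII. Kif20a rose on the log2 scale by 5.2 ± 0.71 and 3.5 ± 0.69. Its exons lie opposite those of Cdc23, at 45.8 to 68.1 CPM. Kif23 and Racgap1 form centralspindlin, which recruits the GTPase activator Ect2 to start furrowing. Kif23 stood at 1.22, 1.01, 0.541 and 0.885 CPM in C57BL/6J control and 18.7, 27.6, 8.41 and 10.4 CPM with AngII. Kif23 in 129S6/SvEvTac was 1.24, 1.45, 0.717 and 0.688 CPM in control and 2.89, 5.48, 2.04 and 3.35 CPM with AngII. Kif23 rose on the log2 scale by 4.14 ± 0.44 and 1.74 ± 0.41. Racgap1 stood at 1.81, 2.31, 2.47 and 1.97 CPM in C57BL/6J control and 37.1, 59.3, 15.2 and 20.4 CPM with AngII. Racgap1 in 129S6/SvEvTac was 1.81, 1.92, 2.19 and 1.62 CPM in control and 6.47, 11.1, 7.0 and 7.0 CPM with AngII. Racgap1 rose on the log2 scale by 3.95 ± 0.36 and 2.06 ± 0.34. Ect2 stood at 1.69, 0.712, 1.18 and 1.91 CPM in C57BL/6J control and 12.1, 22.8, 7.12 and 9.34 CPM with AngII. Ect2 in 129S6/SvEvTac was 1.4, 1.28, 1.88 and 1.6 CPM in control and 2.39, 4.75, 2.74 and 3.64 CPM with AngII. It rose on the log2 scale by 3.22 ± 0.38 (SE, adjusted p = 1.64e-05) in C57BL/6J, and its change of 1.13 ± 0.36 (SE, adjusted p = 0.0537) in 129S6/SvEvTac was not called, although 7 other settings called it.

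Anln (chr9:22332012-22389188, minus strand) encodes anillin, an actin and myosin scaffold of the cleavage furrow, and did not follow the other genes. Anln stood at 78.2, 68.7, 83.2 and 78.1 CPM in C57BL/6J control and 99.4, 194, 113 and 71.4 CPM with AngII. Anln in 129S6/SvEvTac was 67.5, 67.3, 70.1 and 81.4 CPM in control and 102, 143, 135 and 120.1 CPM with AngII. One C57BL/6J AngII library lay within the range of its controls. The log2 fold change was 0.63 ± 0.22 (SE, adjusted p = 0.0313) in C57BL/6J and 0.81 ± 0.22 (SE, adjusted p = 0.0246) in 129S6/SvEvTac. The C57BL/6J call was lost in 7 settings, among them leaving out AngII replicate 2 or control replicate 1, 2 or 5, at adjusted p of 0.0548 to 0.121. The 129S6/SvEvTac call was lost in 6, at 0.0501 to 0.0741. Per kilobase of exon, Anln was the highest of the 38 genes in every group, at 8.5 CPM per kb in C57BL/6J control and 7.9 in 129S6/SvEvTac control. The next were Incenp at 1.39 and 1.55 CPM per kb, and the medians of the 38 were 0.212 and 0.13.

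**Figure D3:**
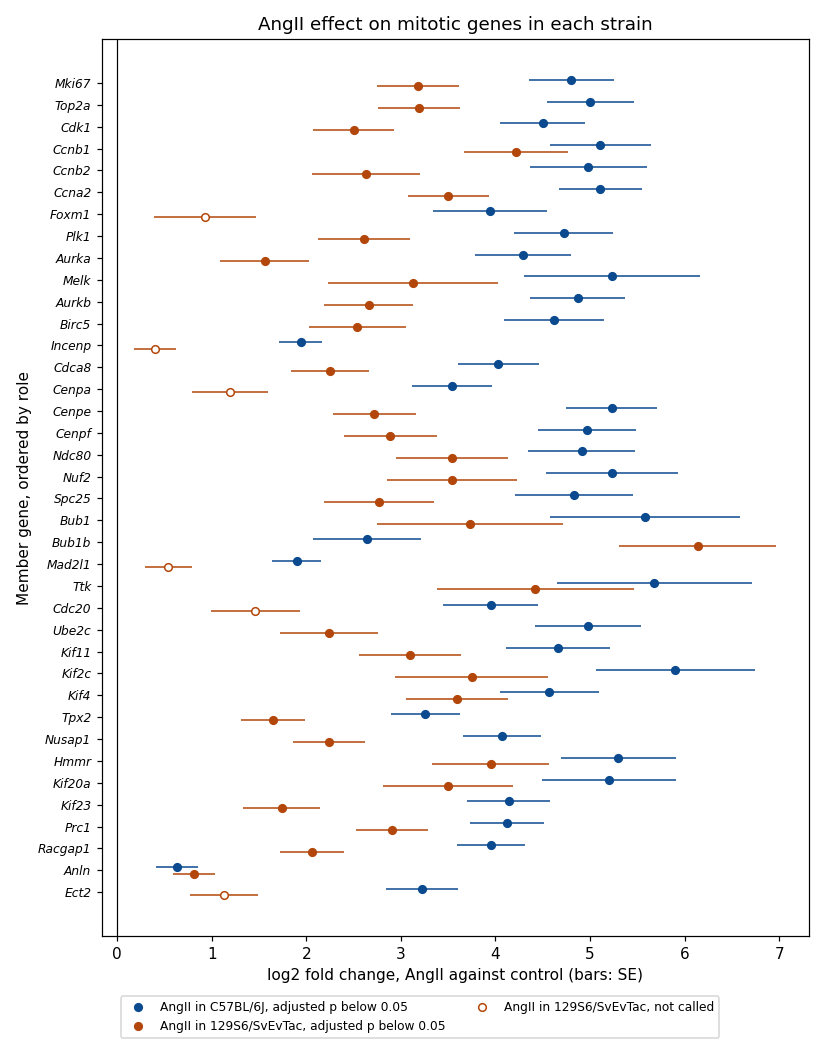
Log2 fold change of AngII against control for each of the 38 mitotic genes, with its SE as a bar, in C57BL/6J (blue) and 129S6/SvEvTac (red). Open circles mark the 6 genes not called in 129S6/SvEvTac; Bub1b and Anln are the only genes whose red point lies to the right of the blue one.

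The AngII effects of the strains were then compared directly. They share no samples, and the test is the interaction of strain and AngII in the same fit. The difference, as C57BL/6J minus 129S6/SvEvTac, was positive for 36 of the 38 genes, with a median of 1.84 on the log2 scale against 0.017 for all genes. It was called for 16 of the 38, against 9.96% of all genes, 15 of them larger in C57BL/6J (5.34% of all genes) and 1, Bub1b, larger in 129S6/SvEvTac (4.62%). By p the first were Incenp (1.54 ± 0.31 SE, adjusted p = 0.00821), Cenpa (2.35 ± 0.56 SE, adjusted p = 0.0173), Kif23 (2.4 ± 0.58 SE, adjusted p = 0.0182), Aurka (2.74 ± 0.66 SE, adjusted p = 0.019) and Cenpe (2.51 ± 0.61 SE, adjusted p = 0.0193). Ect2, Racgap1, Mad2l1, Nusap1, Aurkb, Cdk1 and Tpx2 differed by 1.36 to 2.21, and Foxm1, Ube2c and Cdc20 by 2.49 to 3.02. Bub1b differed by -3.51 ± 1.02 (SE, adjusted p = 0.0422), a value that rests on a control group with 3 libraries at 0. It ran from -7.71 to -2.92 over the settings and left-out libraries, and the call was lost in 16 of them, at adjusted p of up to 0.141. Of the 6 genes not called with AngII in 129S6/SvEvTac, all 6 were among these 15. The 22 genes whose difference was not called are not thereby shown to respond alike: for Mki67 the difference was 1.62 ± 0.56, with a 95% interval of 0.42 to 2.82, and for Anln -0.18 ± 0.31, with -0.83 to 0.47.

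This count depended on single libraries and on the tool, and the share of all genes called moved with it. It was 25 with DESeq2, against 15.7% of all genes, and 25 without C57BL/6J AngII replicate 3, against 17%. It fell to 8, 9 and 10 without C57BL/6J control replicate 1, 2 or 5, to 9 without 129S6/SvEvTac AngII replicate 4, and to 10 without 129S6/SvEvTac control replicate 1 or 2, settings in which 5.92% to 7.41% of all genes were called. Without C57BL/6J AngII replicate 1 and 129S6/SvEvTac AngII replicate 5 together it was 2, against 6.05%. Of the 16 calls, 7 held with each library left out in turn, and Incenp and Ect2 held in every setting tried. No called difference turned its sign in those settings.

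**Figure D4:**
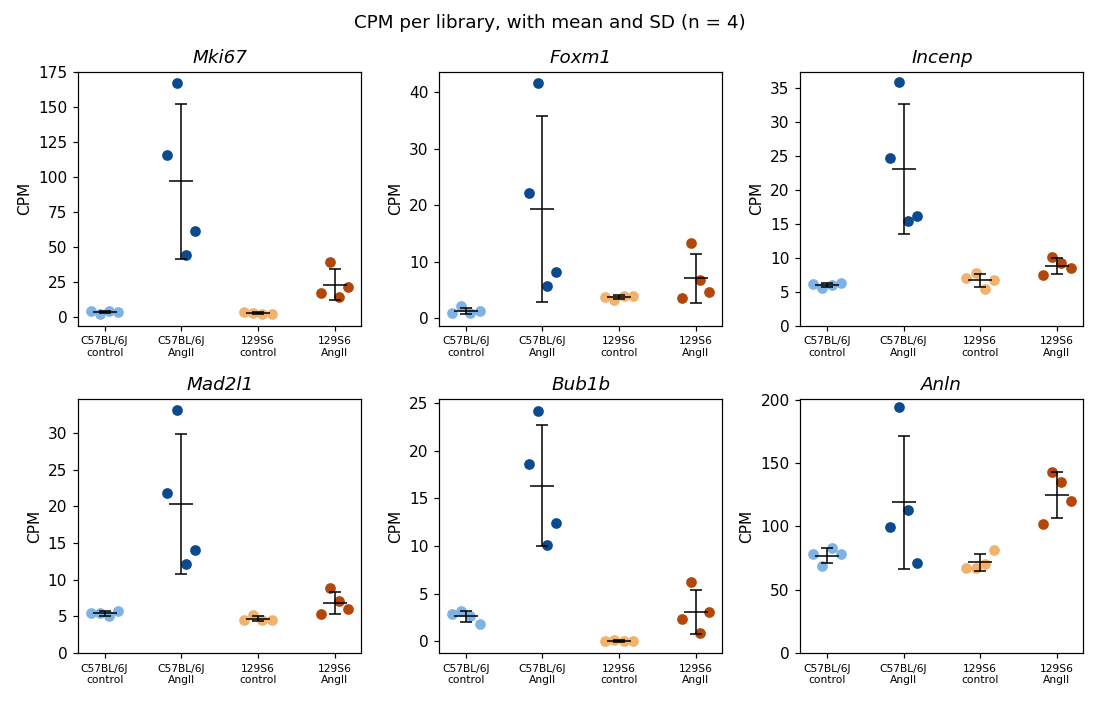
CPM of 6 genes in each library (points), with the mean and SD of the 4 libraries of a group (bars), on linear axes from 0. Mki67 shows the common pattern, Foxm1, Incenp and Mad2l1 have small or uncalled changes in 129S6/SvEvTac, Bub1b is at or near 0 in the 129S6/SvEvTac controls, and Anln is high in every group.

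Between the strains in control, 1 of the 38 genes was called, Bub1b, which was higher in C57BL/6J by 5.91 ± 0.83 (SE, adjusted p = 0.000165) on the log2 scale, against 10.4% of all genes called in either direction and 5.35% called higher in C57BL/6J. What the low counts of this gene in 129S6/SvEvTac controls reflect was not tested, as said above. The median difference of the 38 was 0.33, against -0.001 for all genes. Libraries of the strains did not overlap, with C57BL/6J above, for 4 of the 38, Bub1b, Ccnb1, Kif4 and Prc1. That is near the share of all genes, 11.3%. Ccnb1 differed by 1.5 ± 0.57 (SE, adjusted p = 0.116), Kif4 by 1.28 ± 0.54 (SE, adjusted p = 0.163) and Prc1 by 0.63 ± 0.38 (SE, adjusted p = 0.366), none of them called. Foxm1 went the other way, at -1.56 ± 0.57 (SE, adjusted p = 0.101). Every 129S6/SvEvTac control of this gene stood above every C57BL/6J control, an order that was not counted over all genes. Foxm1 was not called, but was in 3 other settings. At this depth most controls gave few reads for these genes, and 1 to 4 of the 38 were listed at 0 in 6 of the 8 control libraries.

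With AngII the strains stood apart. C57BL/6J was higher for 35 of the 38 genes, against 16.8% of all genes called higher, with a median difference of 2.26 on the log2 scale against 0.02. The largest differences were those of Birc5 (2.9 ± 0.48 SE, adjusted p = 0.000337), Cdk1 (2.69 ± 0.41 SE, adjusted p = 0.000165), Cdc20 (2.61 ± 0.47 SE, adjusted p = 0.000624) and Cenpa (2.6 ± 0.4 SE, adjusted p = 0.000182). The libraries did not overlap for 34 of the 38, against 14.7%, the exceptions being Foxm1, Cenpf, Ttk and Anln. Foxm1 (1.46 ± 0.54 SE, adjusted p = 0.0506) and Ttk (1.91 ± 0.83 SE, adjusted p = 0.0943) were not called, but 9 other settings or left-out libraries called Foxm1, at adjusted p down to 0.011, and 2 called Ttk. Anln differed by -0.07 ± 0.22 (SE, adjusted p = 0.846), with a 95% interval of -0.53 to 0.39, and was not called either, except as lower in C57BL/6J without C57BL/6J AngII replicate 2 (adjusted p = 0.0481). Calls of Bub1 (adjusted p = 0.0446) and Melk (adjusted p = 0.024) were lost in 11 and 5 settings, at up to 0.125 and 0.0769.

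Scaled to exon length, the highest levels in C57BL/6J with AngII after Anln (13.2 CPM per kb) were those of Cdc20 (12.6), Ccna2 (10.2), Mki67 and Ccnb2 (9.65 each) and Ube2c (9.21). Ndc80 (1.04), Ttk (1.07) and Cenpf (1.53) were the lowest. In 129S6/SvEvTac with AngII the level per kb ran from 0.183 for Ndc80 to 2.27 for Mki67 and Ccna2, and was 13.8 for Anln. The median of the 38 was 3.91 CPM per kb in C57BL/6J and 0.774 in 129S6/SvEvTac with AngII. Counted as a gain in level over control, the medians were 3.56 and 0.587 CPM per kb, with Cdc20 first in C57BL/6J (11.7) and Anln first in 129S6/SvEvTac (5.92).

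The 38 genes varied together between libraries of a group. Within C57BL/6J with AngII replicate 2 was the highest library for 38 of 38 genes, and replicate 3 the lowest for 33 and replicate 5 for 5. Within 129S6/SvEvTac with AngII replicate 2 was also the highest for 38 of 38, and replicates 4, 1 and 5 were the lowest for 25, 12 and 1. The ranks of highest library were the same with scaling to library size only. The highest library exceeded the lowest by a median of 3.64-fold (2.33 to 7.33) in C57BL/6J and 2.7-fold (1.37 to 7.67) in 129S6/SvEvTac. In the control groups no library was the highest for more than 16 genes. Over the 16 libraries, each gene's log2 CPM followed the mean of the other 37 with Pearson's r of 0.711 to 0.994 (median 0.974), lowest for Anln (0.711), Bub1b (0.781) and Foxm1 (0.808). After subtracting group means r was 0.417 to 0.934 (median 0.796). These values are descriptions, since the genes share each library's composition and normalisation.

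Markers of cell types moved along with these groups, and their part in the results was not tested. The mean log2 CPM of the 38 genes was -0.13, -0.26, 0.02 and -0.08 in C57BL/6J control, 4.46, 5.05, 3.24 and 3.55 with AngII, -0.46, -0.29, -0.69 and -0.83 in 129S6/SvEvTac control and 1.7, 2.83, 1.46 and 2.01 with AngII. Of 8 smooth muscle markers 7 fell and none rose with AngII in C57BL/6J, where 17.1% of all genes were called lower, with mean log2 CPM of 9.16, 9.54, 10.3 and 9.53 against 10.61, 10.61, 10.69 and 10.75 in control. None of the 8 was called in 129S6/SvEvTac, where 4.47% of all genes were called lower and 7.71% higher, so that count is near those shares. Monocyte and macrophage markers rose for 10 of 10 in C57BL/6J, against 21.8% of all genes, and for 0 of 10 in 129S6/SvEvTac, against 7.71%. Their mean log2 CPM with AngII was 6.36, 5.71, 5.41 and 6.36 in C57BL/6J and 4.0, 3.27, 3.35 and 4.11 in 129S6/SvEvTac, against 3.58 to 4.13 and 2.62 to 3.56 in control. Their summed level was 970.2 to 1771 CPM in C57BL/6J with AngII, 302 to 427 CPM in its controls, 211 to 395 CPM in 129S6/SvEvTac with AngII and 157 to 287 CPM in its controls, and none of the 10 was at 0 in any library. In C57BL/6J with AngII the highest macrophage values were those of replicates 1 and 5, while the highest mitotic values were those of replicates 2 and 1. Fibroblast markers rose for 5 of 8 in C57BL/6J and 3 of 8 in 129S6/SvEvTac, against the same 21.8% and 7.71%. Their summed levels were 23808 to 34529 against 6007 to 7128 CPM and 12643 to 22301 against 5188 to 8092 CPM.

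Adipocyte markers rose for 7 of 8 in C57BL/6J with AngII, against 21.8% of all genes, and for 0 of 8 in 129S6/SvEvTac, against 7.71%. Their mean log2 CPM in C57BL/6J was 7.46, 4.46, 3.19 and 6.07 with AngII, against 3.98, 2.58, 2.23 and 2.16 in control. Their summed level was 139.6 to 3071 CPM in C57BL/6J with AngII against 89.1 to 248 CPM in control, and 246 to 1099.6 against 115 to 532 CPM in 129S6/SvEvTac, with none of the 8 at 0. Without C57BL/6J AngII replicates 1 and 5, the highest in adipocyte markers and a choice made after seeing the data, 38 mitotic genes were called higher in C57BL/6J, against 16.2% of all genes, and 31 in 129S6/SvEvTac, against 8.01%. In that setting 11 differences of effects were called larger in C57BL/6J, against 3.01% of all genes, and 33 genes were higher in C57BL/6J with AngII, against 12.4%. The pair left out together above, C57BL/6J AngII replicate 1 and 129S6/SvEvTac AngII replicate 5, had the highest summed adipocyte level of each AngII group. Those levels were 3071 and 1099.6 CPM. Without that pair 2 differences of effects were called, against 6.05% of all genes. Neutrophil and mast cell markers rose for 4 of 6 tested in C57BL/6J and 0 of 6 in 129S6/SvEvTac, again against 21.8% and 7.71% of all genes. Their summed levels were 16.9 to 82.2 against 12 to 30.0 CPM in C57BL/6J, with Ly6g and Elane below 0.1 CPM on average in every group. Endothelial markers rose for 2 of 8 in each strain, against the same shares, and fell for 1 in C57BL/6J, against 17.1% of all genes called lower. Their summed level was 2398 CPM in 129S6/SvEvTac AngII replicate 2, the library highest for all 38 mitotic genes in its group, against 758, 807 and 1208 CPM in replicates 1, 4 and 5. It was 662 to 1112 CPM in the controls of that strain and 839 to 1245 CPM in C57BL/6J, with none of the 8 at 0. Without that library 28 mitotic genes were called higher in 129S6/SvEvTac, against 5.48% of all genes. T and NK cell markers did not pass the test with AngII in either strain (0 of 7). Of all genes 21.8% and 7.71% were called higher and 17.1% and 4.47% lower. The estimates were positive for all 7 in C57BL/6J (median log2 fold change 1.05) and for 5 in 129S6/SvEvTac (0.35). The summed level of these markers was at most 11.7 CPM in any library, so the missing calls do not show that they were unchanged.

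**Figure D5:**
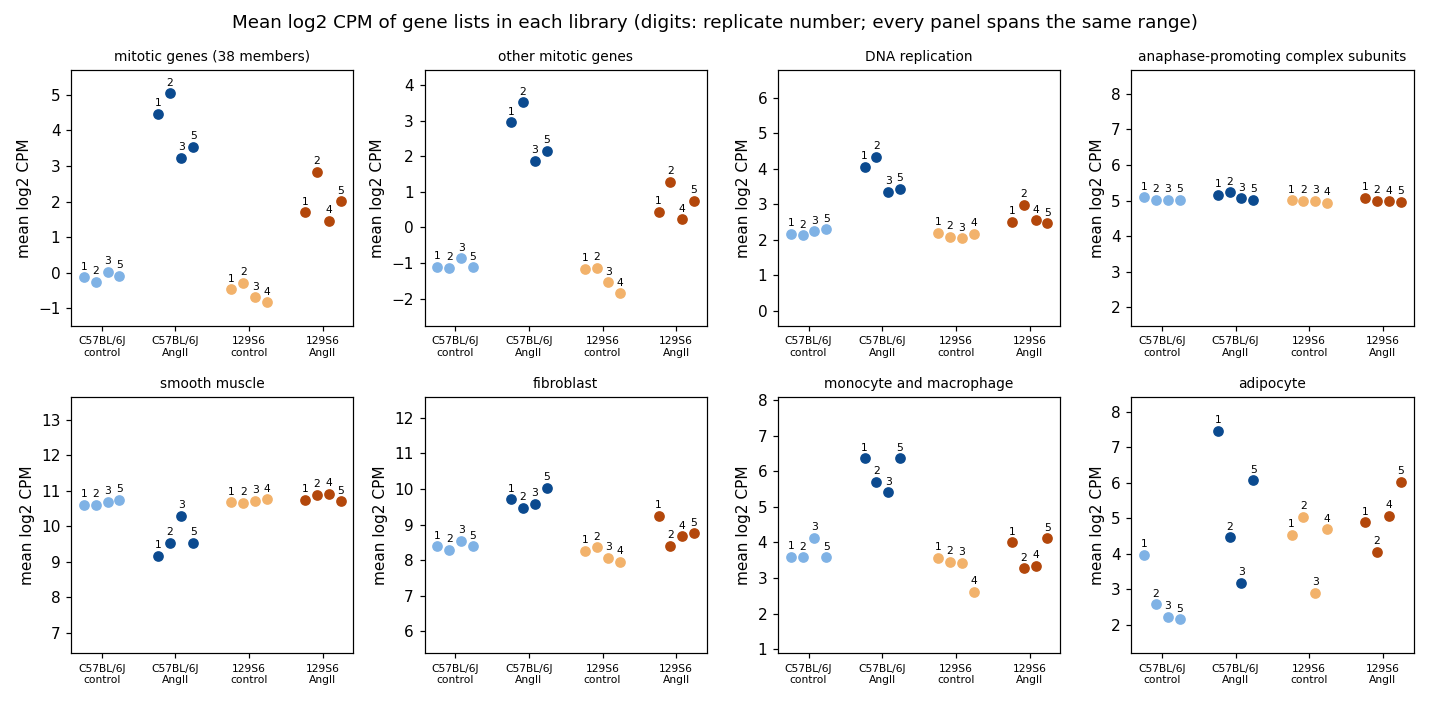
Mean log2 CPM of 8 gene lists in each library, labelled by replicate number, for the 4 groups; every panel spans the same range on its vertical axis. The 38 mitotic genes and the other mitotic genes share the order of the AngII libraries, anaphase-promoting complex genes stay level, and in C57BL/6J with AngII smooth muscle markers are lowest and adipocyte markers highest in replicate 1.

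Other genes of cell division were read from 6 lists to place the 38; values in parentheses are log2 fold changes of AngII against control, with SE, unless another comparison is named. Of 54 further mitotic genes, whose median log2 fold changes were 4.15 in C57BL/6J and 2.18 in 129S6/SvEvTac, most rose with AngII. In C57BL/6J 51 rose and 1 fell, against 21.8% and 17.1% of all genes, and 36 rose in 129S6/SvEvTac, against 7.71%. Those of smallest p in C57BL/6J were Ckap2 (4.77 ± 0.44), a spindle protein, Cit (3.77 ± 0.37), citron kinase of the midbody, Cdca3 (4.7 ± 0.49) and Pbk (5.14 ± 0.56). The one that fell was Pttg1, securin, the inhibitor of separase. Pttg1 stood at 33.8, 33.1, 35.7 and 36.7 CPM in C57BL/6J control and 18.7, 14.6, 17.5 and 11.1 CPM with AngII, for a log2 change of -1.17 ± 0.2 (SE, adjusted p = 0.000361). Pttg1 in 129S6/SvEvTac was 0.904, 1.37, 1.52 and 0.732 CPM in control and 1.4, 2.37, 1.87 and 2.03 CPM with AngII, 0.75 ± 0.23 (SE, adjusted p = 0.0403). Its counts were thus lower in 129S6/SvEvTac controls, as those of Bub1b were, with a strain difference of 4.93 ± 0.24 (SE, adjusted p = 1.22e-09). As for Bub1b, whether this reflects expression, strain sequence against the C57BL/6J assembly or the counting was not tested. The difference of its AngII effects, -1.92 ± 0.3 (SE, adjusted p = 0.0023), also had the sign of Bub1b. Hjurp, the chaperone of Cenpa, was the other gene of this list called between control strains, 1.37 ± 0.2 (SE, adjusted p = 0.000234).

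DNA replication genes rose mostly in C57BL/6J. Of 25, 23 rose there and 5 in 129S6/SvEvTac, against 21.8% and 7.71% of all genes, with medians of 1.47 and 0.32. The difference of effects was called for 14, against 9.96% of all genes, 13 of them larger in C57BL/6J, against 5.34%. Uhrf1 (4.32 ± 0.38 and 2.38 ± 0.37), which maintains DNA methylation, Rrm2 (3.53 ± 0.32 and 1.7 ± 0.3), a subunit of ribonucleotide reductase, and Tk1 (3.5 ± 0.34 and 1.65 ± 0.33), thymidine kinase, rose in both. Mcm6, a subunit of the replicative helicase, was the exception, with a larger effect in 129S6/SvEvTac (-1.31 ± 0.22 SE, adjusted p = 0.00301). Mcm6 stood at 80.5, 72.6, 83.6 and 77.4 CPM in C57BL/6J control against 3.75, 3.18, 2.55 and 3.35 CPM in 129S6/SvEvTac control, a strain difference of 4.61 ± 0.18 (SE, adjusted p = 6.26e-11), to which the same limit applies. Condensin and cohesin genes rose for 8 of 17 in C57BL/6J, against 21.8% of all genes, and 2 of 17 in 129S6/SvEvTac, against 7.71%. Their medians were 0.2 and 0.03, and the smallest p in both strains was that of the condensin subunit Ncaph (4.18 ± 0.35 and 2.0 ± 0.33). The condensin subunit Ncapg had the largest estimates (6.1 ± 1.0 and 3.25 ± 0.94), with controls at 0 to 0.384 CPM.

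The anaphase-promoting complex, which Cdc20 activates, moved in no common direction. Of its 16 subunits and regulators 4 rose and 3 fell in C57BL/6J, with a median of 0.03, against 21.8% of all genes called higher and 17.1% lower. In 129S6/SvEvTac 1 fell and none rose, against 4.47% and 7.71% of all genes. Anapc11, a catalytic subunit, was the one that fell, at -0.43 ± 0.06 (SE, adjusted p = 0.000497), and also fell in C57BL/6J, at -0.53 ± 0.06. Among 23 G1 cyclins, kinases and genes of the E2F and RB families, 12 rose and 3 fell in C57BL/6J, against 21.8% and 17.1% of all genes. In 129S6/SvEvTac 9 of these genes rose and 2 fell, against 7.71% and 4.47%. E2f8 (5.5 ± 0.71 and 3.65 ± 0.7), Ccne1 (3.94 ± 0.45) and E2f1 (2.06 ± 0.24) were among those that rose. Of 12 inhibitors of the cell cycle tested, 5 rose and 2 fell in C57BL/6J and 1 rose and 3 fell in 129S6/SvEvTac. Beside the same shares of all genes, the 2 that fell in C57BL/6J and the 1 that rose in 129S6/SvEvTac were near the share. Cdkn1a, the inhibitor p21, rose in both (1.46 ± 0.14 SE, adjusted p = 2.93e-06 and 0.92 ± 0.14 SE, adjusted p = 0.00063), and Btg2, an antiproliferative gene, fell in both (-0.99 ± 0.18 and -0.7 ± 0.18).

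Genes were also ranked by how closely their log2 CPM followed the mean of the 38 over the 16 libraries. The 38, all genes of the other cell division lists above and unnamed gene models were first left out. Highest among the remaining genes were Stmn1 (Pearson's r = 0.989), which destabilises microtubules, Diaph3 (0.986), an actin-nucleating formin, Ykt6 (0.978), Glis3 (0.977), Mxd3 (0.976), Adamts12 (0.976), Piezo1 (0.975), Lox (0.974), Twf1 (0.973) and Hdlbp (0.973). Stmn1 had mean levels of 3.97 and 39.8 CPM in C57BL/6J control and AngII, and of 2.69 and 9.86 CPM in 129S6/SvEvTac. Lox, the collagen cross-linking enzyme lysyl oxidase, had 227 and 1699 CPM, and 175 and 709 CPM. Among the 100 genes of highest r, with no gene left out, 24 were of the 38, 21 were other mitotic genes, 3 were DNA replication genes and 50 were in none of the lists. Each of the 38 is itself part of the mean used here, so its place in this ranking is partly built in.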

How the data were processed

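Per the labels' protocols, crushed aorta was lysed, total RNA was purified on columns with DNase, and HISAT2 aligned the reads to GRCm38 (mm10), and StringTie estimated abundances with Gencode annotation. The authors deposited expected counts, all of them whole numbers. The submitters' processing notes name DESeq2 1.26.0 and R 3.6.2, with no role; the Gencode release, the derivation of the counts and strandedness were not given in the sources used here. GENCODE M21 named 52489 of 52636 genes.

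The test was edgeR 4.0.16 in R 4.3.3, with filterByExpr (minimum count 10), TMM scaling and a robust quasi-likelihood fit with 1 mean per group over 16 libraries, called at a Benjamini-Hochberg adjusted p below 0.05 over 17125 genes. Each SE was worked back from the test, as the size of the log2 fold change divided by the square root of its quasi-likelihood F statistic. The SEs and the confidence intervals built on them therefore carry the same information as the p-values and are no separate measure of precision. Log2 CPM used a prior count of 2. The members and lists were chosen with earlier results of these data known. Named genes followed a fixed panel of 27 members, those departing from most, and up to 4 called genes per other list and comparison. The pipeline was tested on simulated data. Alternatives were RLE or library-size scaling, other filters, DESeq2 1.42.0, limma 3.58.1 voom, only the groups compared, a replicate block and left-out libraries. No 2 libraries of a group were identical.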

Additional observations from a re-analysis of the deposited data

Results flagged for a closer look

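The AngII effect differed between the strains, by the test of the interaction, for 16 of the 38 genes, against 9.96% of all genes. It was larger in C57BL/6J for Foxm1 (by 3.02 on the log2 scale), Aurka (2.74), Ube2c (2.74), Cenpe (2.51), Cdc20 (2.49), Kif23 (2.4), Cenpa (2.35), Aurkb (2.21), Ect2 (2.08), Cdk1 (2.01), Racgap1 (1.88), Nusap1 (1.84), Tpx2 (1.6), Incenp (1.54) and Mad2l1 (1.36). It was larger in 129S6/SvEvTac for Bub1b (-3.51), with 3 of the 4 129S6/SvEvTac controls at 0 and a range of -7.71 to -2.92 over the settings and left-out libraries. That call was lost in 16 of them, at adjusted p of up to 0.141. Of the 16 called differences, 7 held with each library left out in turn, and only Incenp and Ect2 held in every setting tried.

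In 10 of 152 sets of a gene and a group, 1 library lay far from the other 3 by Dixon's test. That test flags about 1 in 20 sets of independent, normally spread values. These genes vary together, so that rate is no standard for the 10 sets. Those above the others were, in C57BL/6J control, Aurkb (0.561 CPM) and Kif4 (1.02 CPM) in replicate 3 and Kif20a (1.15 CPM) in replicate 5. In 129S6/SvEvTac control they were Spc25 (0.884 CPM), Bub1b (0.15 CPM), Mad2l1 (5.19 CPM) and Nusap1 (1.43 CPM), all in replicate 2. In 129S6/SvEvTac with AngII they were Ttk (2.88 CPM) and Racgap1 (11.1 CPM) in replicate 2. Aurka was below the others in C57BL/6J control replicate 1 (0.218 CPM).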

How the results depend on the processing

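Calls of AngII in C57BL/6J (37 to 38 genes), AngII in 129S6/SvEvTac (28 to 35) and strains with AngII (31 to 37) stayed within 1.5 times of the main counts in every setting, and no call changed sign. In the same order, 21.4% to 46.1%, 5.87% to 19.4% and 17% to 36.7% of all genes were called over these settings. The difference of effects (16) became 25 with DESeq2 and 2 without C57BL/6J AngII replicate 1 and 129S6/SvEvTac AngII replicate 5 together, and ran from 8 to 25 with each library left out; the cause was not tested. The shares of all genes were 9.96%, 15.7% and 6.05% in these fits, and 5.92% to 17% with each library left out. Strains in control (1) became 3 with DESeq2 and 2 with only the groups compared, and ran from 1 to 2 with each library left out. There 14.7% and 17.4% of all genes were called, and 7.72% to 12.1% with each library left out. Same-numbered libraries had correlated deviations of -0.06 to 0.146, and not every library matched its own number best, so the numbers were not taken as pairs; with the replicate block the counts were 37, 30, 14, 1 and 35 for AngII in C57BL/6J, AngII in 129S6/SvEvTac, the difference, strains in control and strains with AngII. With that block 36.1%, 8.33%, 9.28%, 8.08% and 26% of all genes were called, in the same order. The interaction cannot be fitted on only the groups compared, as it uses all 4. With scaling by library size alone the all-gene median log2 change went from 0.00272 to -0.157 in 129S6/SvEvTac and from 0.00918 to -0.0797 in C57BL/6J. In that setting 32 and 38 mitotic genes were called, against 17.5% and 41% of all genes. Control levels of Ttk, Bub1, Kif2c, Melk, Ndc80 and Kif20a include libraries at 0, where depth limits how low a level can be read. Those of Bub1b in 129S6/SvEvTac do too, and what its low counts there reflect was not tested.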
